A study of Mus musculus with 9 samples.

Results

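Heat-shock chaperones were followed in single-nucleus RNA sequencing of mouse hearts after ischemia and reperfusion. The members are 10 genes of the 32285 counted, taken by symbol: Hspa1a, Hspa1b, Hsph1, Dnajb1, Hsp90aa1, Hspb1, Hspa8, Hsp90ab1, Cryab and Hspe1. They were chosen on a working list made with earlier results of these same data known, and which measured values led to their choice is not recorded. Differences between NS-I/R and NS-Sham are therefore given as a description, with no p-value, for these genes and for the related genes named at the end. The hearts came from 9 male wild-type mice aged 9 to 10 weeks, with 1 library per heart and 3 hearts per group, so n = 3 for each group mean, and each ± is an SD over 3 libraries. NS-Sham hearts had a thoracotomy alone with normal saline (NS), and NS-I/R hearts had the left anterior descending (LAD) artery closed for 45 min and then 24 h of reperfusion (I/R) with saline. Enpa-I/R hearts had the same I/R with enpatoran at 5 mg/kg, which blocks TLR7, a sensor of single-stranded RNA. All mice had 2 intraperitoneal injections, the first 1 h before ischemia, and the labels disagree on when the second was given. No sham heart received enpatoran, so the drug was compared only within injured hearts. That comparison shares the NS-I/R hearts with the injury contrast, so genes chosen for a high level there would tend to fall in it. Its p-values do not allow for the choice of genes. Nothing in the labels ties hearts to litters or days, so p-values measure the spread between these hearts.

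Heat-shock proteins are molecular chaperones that hold, refold or hand over unfolded proteins. In stressed cells the transcription factor HSF1 binds heat-shock elements, inverted repeats of a GAA unit, and switches on the inducible members, while constitutive relatives serve protein folding in unstressed cells. Hspa1a and Hspa1b are adjacent, nearly identical genes that encode the inducible HSP70, and Hspa8 encodes its constitutive relative HSC70. Dnajb1 is a J-domain partner that stimulates HSP70, and Hsph1 (HSP110) is a nucleotide exchange factor for it. Hsp90aa1 and Hsp90ab1 encode the inducible and the constitutive cytosolic HSP90. Hspb1 and Cryab are small heat-shock proteins that hold unfolded proteins, and Cryab is abundant in striated muscle. Hspe1 is the mitochondrial co-chaperonin HSP10.

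The sequences upstream of 4 members are shown because they hold matches to the element that HSF1 recognises, and to compare those of Hspa1a and Hspa1b. They are the 250 bases before the RefSeq transcript start (build GRCm38.p6), printed 5′ to 3′ along the gene's strand, with matches to GAANNTTC or TTCNNGAA in capitals. Each of these motifs is its own reverse complement, so both strands are covered. Coordinates are chr17:34972157-34972406 (minus strand) for Hspa1a, chr17:34959239-34959488 (minus) for Hspa1b, chr5:135887669-135887918 (plus) for Hspb1 and chr1:55087898-55088147 (plus) for Hspe1.
Hspa1a: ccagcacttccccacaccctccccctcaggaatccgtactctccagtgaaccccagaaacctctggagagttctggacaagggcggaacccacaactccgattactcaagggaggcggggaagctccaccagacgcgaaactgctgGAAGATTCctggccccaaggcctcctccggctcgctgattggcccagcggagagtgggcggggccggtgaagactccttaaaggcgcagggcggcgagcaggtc
Hspa1b: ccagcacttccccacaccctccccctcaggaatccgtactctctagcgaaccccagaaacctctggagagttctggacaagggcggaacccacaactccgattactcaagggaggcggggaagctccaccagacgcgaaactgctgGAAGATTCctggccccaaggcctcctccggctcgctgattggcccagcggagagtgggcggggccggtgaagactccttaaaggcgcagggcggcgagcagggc
Hspb1: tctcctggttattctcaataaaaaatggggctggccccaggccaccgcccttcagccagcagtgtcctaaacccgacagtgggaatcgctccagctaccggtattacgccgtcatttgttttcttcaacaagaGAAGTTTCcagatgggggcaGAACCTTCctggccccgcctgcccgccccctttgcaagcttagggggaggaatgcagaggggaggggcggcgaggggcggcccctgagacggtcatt
Hspe1: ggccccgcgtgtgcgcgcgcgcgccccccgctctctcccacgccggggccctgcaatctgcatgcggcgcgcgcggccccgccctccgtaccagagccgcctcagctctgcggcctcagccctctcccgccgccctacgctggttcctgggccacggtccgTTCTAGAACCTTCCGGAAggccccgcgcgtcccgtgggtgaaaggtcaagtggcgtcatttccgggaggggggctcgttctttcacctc

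The Hspa1a and Hspa1b windows were identical at 247 of 250 bases (98.8%). They differed by C-207T, T-204C and T-2G, written as the Hspa1a base, the position counted back from the transcript start and the Hspa1b base. Both held 1 match, which begins 104 bases before the start. The windows lie before the transcript start, so they do not show how reads of the copies are split. Hspb1 held 2 matches, the nearer beginning 97 bases before the start, and Hspe1 held 3 that overlap, the nearest beginning 79 bases before the start. The RefSeq table covered 6 of the 10 members in 8 entries: both Hsph1 entries held 1 match and both Dnajb1 entries held 0. Of 32851 promoter windows of this length, 6.69% held GAANNTTC, 7.17% held TTCNNGAA and 12.8% held either. A match is a run of letters and not a measured binding site, and an absent match says nothing of binding elsewhere.

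Library totals were 19651794 to 38970153 UMIs (unique molecular identifiers, which count RNA molecules), over 4079 to 8198 barcodes. After filters 41979 nuclei remained, 13217 from NS-Sham, 15371 from NS-I/R and 13391 from Enpa-I/R, with median depths per library of 2365 to 3263.5 UMIs. They formed 26 clusters, of which 25 were named by markers as 13 classes such as cardiomyocyte-like, and these names are rebuilt from the counts. The leading cluster differed between groups in 4 classes. Cardiomyocyte-like nuclei were most numerous in cluster 3 in NS-Sham (71.8%) and in cluster 2 in NS-I/R (51.7%), endothelial-like in clusters 4 (36.5%) and 6 (31.0%), fibroblast-like in clusters 10 (91.0%) and 11 (60.3%), and macrophage-like in clusters 14 (94.5%) and 20 (51.6%). In Enpa-I/R the leading clusters were 3 (31.6%), 6 (32.2%), 10 (55.6%) and 14 (63.1%). Library pairs shared 5 to 20 barcodes, at most 0.343% of the smaller library. NS-I/R replicate 2 alone held UMIs of the airway gene Bpifa1 (565, against 0 in every other library), a check chosen after the data were seen, and values without that library are given where they matter. Levels are CPM (UMIs relative to the UMI total of the class in that library, TMM-scaled within each class). They are comparable between libraries for 1 gene but not between genes. Between classes they are comparable only roughly, because each class was scaled on its own.

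Hspa1a and Hspa1b, summed because reads of near-identical copies can be split between them, were the members that differed most. Over all nuclei the sum was 3.09, 2.30 and 2.24 CPM in the NS-Sham hearts, 441, 166 and 163 CPM in the NS-I/R hearts and 5.94, 18.8 and 4.38 CPM in the Enpa-I/R hearts. The 3 groups did not overlap, and every Enpa-I/R heart lay above every sham heart. NS-I/R was above NS-Sham by 6.66 on the log2 scale (SE 0.66). With enpatoran the sum fell by 4.74 (SE 0.58, edgeR adjusted p = 0.0047 by its quasi-likelihood test), lower in 3 of 3 hearts. Without NS-I/R replicate 2, the library with airway UMIs, the drug difference was -5.00 (edgeR adjusted p = 0.0158). In sums over all nuclei, a changed mix of nuclei and a changed level per nucleus cannot be told apart, so the classes follow. In this assay, fewer nuclei of a kind and less RNA per nucleus were separated only as far as the classes separate them.

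Both copies were higher in NS-I/R and fell with enpatoran when taken separately. Hspa1a was 6.87 and Hspa1b 6.46 above NS-Sham on the log2 scale over all nuclei in NS-I/R, and they fell by 4.65 and 4.88 with enpatoran (edgeR adjusted p = 0.00622 and 0.00345). In cardiomyocyte-like nuclei they fell by 3.42 and 5.11 (edgeR adjusted p = 0.0126 and 0.00488), and whether the copies differ was not tested. Their log2(CPM + 1) levels correlated at 0.89 over 63 sums of 7 classes and 9 libraries, which share library and depth.

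Cardiomyocyte-like nuclei, recognised by Myh6, Ryr2, Tnnt2 and other sarcomere genes, held almost no Hspa1a or Hspa1b RNA in sham hearts. Their summed level was 0.686, 0.482 and 0.491 CPM in NS-Sham, from 18 UMIs in 3300 nuclei, and 31.0, 70.0 and 123 CPM in NS-I/R. In Enpa-I/R it was 2.09, 10.1 and 2.28 CPM. The NS-I/R libraries lay above all others and differed widely among themselves (74.8 ± 46.3 CPM). The difference from NS-Sham was 7.08 (SE 0.81), and with enpatoran the sum fell by 4.03 (SE 0.63, edgeR adjusted p = 0.00942). Without Enpa-I/R replicate 3 the adjusted p was 0.0513 at a log2 difference of -3.69.

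Endothelial-like nuclei, which line vessels, gave 5.58, 1.67 and 0.930 CPM in NS-Sham, 208, 83.0 and 78.7 CPM in NS-I/R and 5.26, 8.96 and 6.01 CPM in Enpa-I/R. The I/R groups did not overlap, while NS-Sham replicate 1 lay within the Enpa-I/R range. The differences were 5.55 (SE 0.51) for injury and -4.21 (SE 0.44, edgeR adjusted p = 0.000978) for the drug. Macrophage-like nuclei held 3.24, 1.93 and 0 CPM in NS-Sham, from 4 UMIs in all, 275, 63.5 and 47.0 CPM in NS-I/R and 6.02, 5.32 and 1.12 CPM in Enpa-I/R. NS-I/R replicate 1 was the highest library in both classes. In macrophage-like nuclei the sum was 5.95 (SE 0.91) above NS-Sham in NS-I/R, and fell by 4.83 (SE 0.70, edgeR adjusted p = 0.00144) with enpatoran.

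Pericyte-like nuclei, of the cells that wrap capillaries, gave 8.65, 1.30 and 9.05 CPM in NS-Sham, 164, 35.6 and 45.8 CPM in NS-I/R and 6.07, 2.76 and 1.14 CPM in Enpa-I/R, which overlapped NS-Sham. The sum was 3.98 (SE 0.66) above NS-Sham in NS-I/R and fell by 4.51 (SE 0.70, edgeR adjusted p = 0.00446) with enpatoran. In fibroblast-like nuclei it was 0.408, 2.58 and 5.11 CPM in NS-Sham, 94.95, 27.6 and 22.01 CPM in NS-I/R and 4.92, 8.33 and 5.55 CPM in Enpa-I/R. The injury difference there was 4.21 (SE 0.67). With enpatoran the sum fell by 2.94 (SE 0.57, edgeR adjusted p = 0.0163), the least among the classes where it passed. That call was lost without NS-I/R replicate 1 (-1.99, adjusted p = 0.052), and without Enpa-I/R replicate 1, 2 or 3 (adjusted p = 0.0664, 0.0685 and 0.0742, edgeR).

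Neutrophil-like nuclei, almost missing in sham hearts (5 nuclei), held the highest class level after injury, with 1883, 780 and 733 CPM in NS-I/R. The Enpa-I/R hearts held 26.2, 23.4 and 0 CPM, from 10 UMIs in 328 nuclei. In a fit of the 6 I/R libraries the sum fell by 5.76 (SE 0.54, edgeR adjusted p = 0.000279).

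Smooth muscle-like nuclei stood apart in that the pair was already present in sham hearts, at 69.2, 71.3 and 27.4 CPM, above every NS-Sham library of the other classes plotted. That sham level rested on few nuclei: 4 of 246 held 39 of the 60 UMIs, 2 each in NS-Sham replicates 1 and 2. In NS-I/R the values were 1199, 32.5 and 38.6 CPM, and in Enpa-I/R 21.4, 21.0 and 17.0 CPM. NS-I/R replicate 1 alone was high: 2 nuclei held 404 of the class's 450 UMIs in that group. The log2 difference from NS-Sham was 2.87 (SE 1.03), and -0.66 without NS-I/R replicate 1. The drug difference of -4.35 (SE 1.15) did not pass the test (edgeR adjusted p = 0.158). It was -0.80 (edgeR adjusted p = 0.674) without NS-I/R replicate 1, the high library, and -4.90 (adjusted p = 0.0086) without NS-I/R replicate 3.

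**Figure D1:**
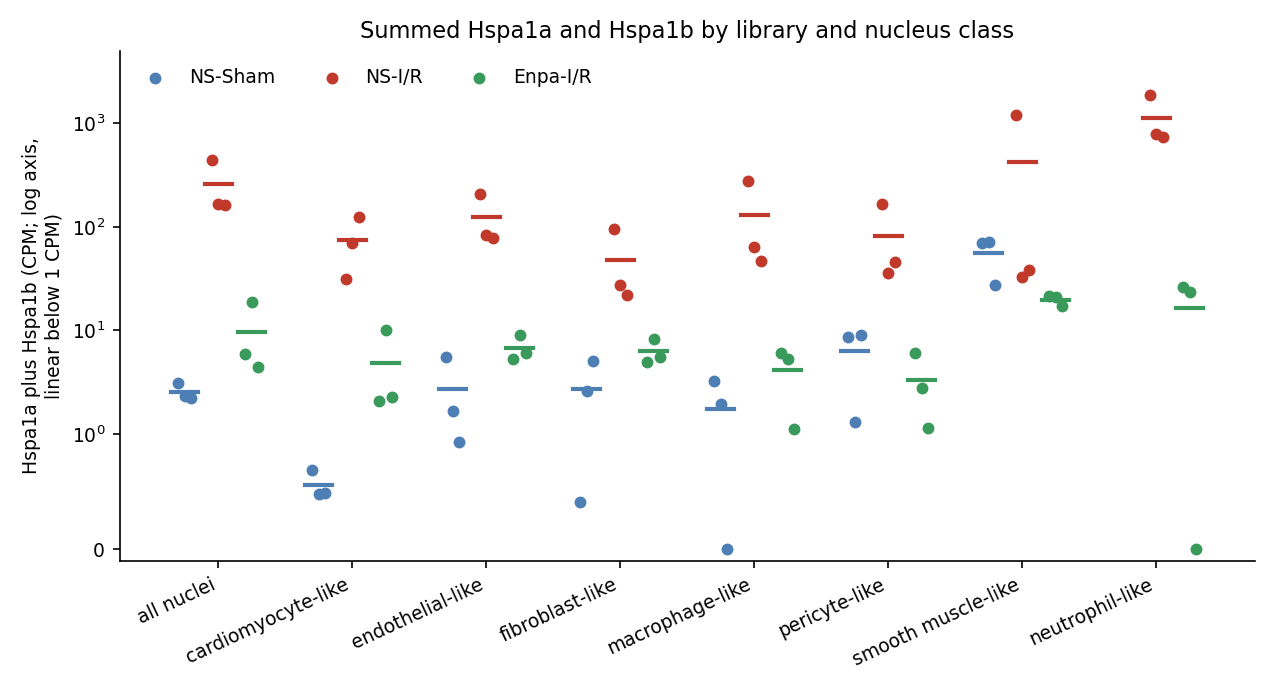
Summed Hspa1a and Hspa1b level (y axis, CPM, logarithmic above 1 and linear below) by nucleus class (x axis), with a point for each library and a line at the mean of 3. NS-I/R points lie above the other groups in every class shown but smooth muscle-like, where 2 of 3 fall to 32.5 and 38.6 CPM, within the sham range.

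The order of classes was read from these means and was not tested. In NS-I/R it ran from neutrophil-like (1130 ± 651 CPM) and smooth muscle-like (423 ± 672) to macrophage-like (129 ± 127), endothelial-like (123 ± 73.1), pericyte-like (81.9 ± 71.6), cardiomyocyte-like (74.8 ± 46.3) and fibroblast-like (48.2 ± 40.6). Neighbours in this order lay within their spread. Raw pair UMIs per nucleus in NS-I/R were 1.86 ± 0.939 in neutrophil-like, 1.77 ± 2.81 in smooth muscle-like and 0.788 ± 0.43 in cardiomyocyte-like nuclei. They were 0.327 ± 0.322 in macrophage-like, 0.276 ± 0.168 in endothelial-like, 0.219 ± 0.203 in pericyte-like and 0.189 ± 0.152 in fibroblast-like nuclei. Median depth was 8453.5 UMIs in cardiomyocyte-like and 2075 in macrophage-like nuclei, so the place of cardiomyocyte-like nuclei depended on the scale. In NS-Sham, smooth muscle-like nuclei (56 ± 24.8 CPM) stood above pericyte-like (6.33 ± 4.37), endothelial-like (2.73 ± 2.5), fibroblast-like (2.7 ± 2.35), macrophage-like (1.72 ± 1.63) and cardiomyocyte-like nuclei (0.553 ± 0.115).

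The pair's RNA was held by few nuclei. In NS-I/R, 400 of 15371 nuclei (2.6%, exact 95% interval 2.36 to 2.87, counting error only) had at least 5 UMIs of the pair, and they held 14975 of 17269 UMIs (86.7%). By heart they were 244 of 4803, 93 of 5146 and 63 of 5422 nuclei. The interval pools these hearts, so it does not measure the spread between them, and most high nuclei came from NS-I/R replicate 1. NS-Sham had 4 such nuclei, all smooth muscle-like, and Enpa-I/R had 10, which held 311 of 568 UMIs. In cardiomyocyte-like nuclei of NS-I/R, 36 nuclei (1.22%) held 80.2% of the class's UMIs, and the highest held 325. In neutrophil-like nuclei 48 (3.5%) held 90.1%, and in macrophage-like nuclei 16 (1.14%) held 61.0%. The share was 51.4% in endothelial-like nuclei, held by 28 (0.703%), and 28.8% in fibroblast-like nuclei, held by 6 that all came from NS-I/R replicate 1. The cutoff counts raw UMIs, and median depth was 8453.5 in cardiomyocyte-like and 1129 in neutrophil-like nuclei. These shares are therefore not comparable between classes.

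Cluster 16, which no marker set named, held 54.5% of the pair's UMIs of NS-I/R in 2.61% of its nuclei: 277, 93 and 31 nuclei in the 3 hearts, with 21.4, 24.3 and 39.5 pair UMIs per nucleus. The other groups had 4 (NS-Sham) and 13 (Enpa-I/R) such nuclei. Cluster 16 counted 8 endothelial markers, but their mean log2 level led the next type, pericyte, by only 0.054. It therefore stayed unnamed. Without the cluster, a sum chosen after the data were seen, the pair's difference was 5.58 for injury and -4.42 for the drug (edgeR adjusted p = 0.00162).

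**Figure D2:**
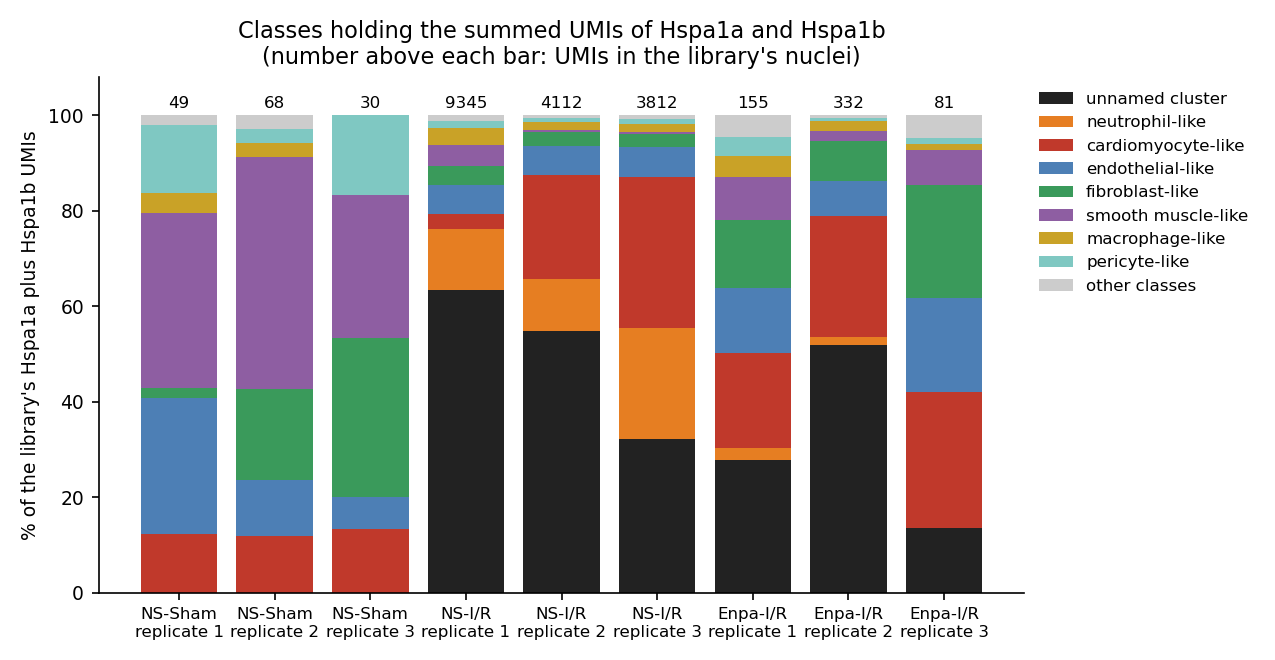
Share of each library's summed Hspa1a and Hspa1b UMIs (y axis, percent) by nucleus class (colours) for the 9 libraries (x axis), with the library's UMI number above each bar. The unnamed cluster held 63.4%, 54.9% and 32.1% in the NS-I/R hearts and cardiomyocyte-like nuclei 3.11%, 21.8% and 31.7%, so the libraries differed in which nuclei carried the RNA; sham bars rest on 30 to 68 UMIs.

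Outside those nuclei a low level was seen in every class. Among nuclei under 5 UMIs, the pair averaged 0.157 ± 0.0713 UMIs per nucleus in NS-I/R, against 0.00859 ± 0.00163 in NS-Sham and 0.0205 ± 0.00873 in Enpa-I/R. By class in NS-I/R this was 0.168 in cardiomyocyte-like nuclei, 0.135 in endothelial-like, 0.132 in fibroblast-like, 0.127 in macrophage-like, 0.112 in pericyte-like and 0.194 in neutrophil-like nuclei. These values lay close together although median depths ran from 1129 UMIs in neutrophil-like to 8453.5 in cardiomyocyte-like nuclei. The part of free RNA in this level was not tested.

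The share of nuclei with at least 1 pair UMI, after thinning each nucleus to 1000 UMIs, was 0.256% ± 0.169 in NS-Sham hearts, 7.75% ± 4.51 after I/R with saline and 0.548% ± 0.116 after I/R with enpatoran. Thinning left out 1134, 1881 and 1303 shallower nuclei in the 3 groups, and unthinned shares were 0.739%, 14.8% and 1.81%. In NS-I/R the thinned share was 16.6% in neutrophil-like nuclei, 6.44% in macrophage-like, 6.41% in endothelial-like, 5.17% in pericyte-like, 5.09% in fibroblast-like and 3.12% in cardiomyocyte-like nuclei. Unthinned, the cardiomyocyte-like share was 14.8% and the endothelial-like share 11.9%, so the order of these 2 classes depended on depth. No class could be taken to lack these genes, so a share from free RNA alone was not measured.

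The nuclei high in the pair were also high in Hsph1, Dnajb1 and Hsp90aa1. They were chosen by their Hspa1a and Hspa1b UMIs, so only the other genes are compared, as a description. Of the 400, 251 were in cluster 16, and the remaining nuclei were of all classes, so kind of nucleus and level were not separated. In the 3 NS-I/R hearts, nuclei with at least 5 pair UMIs had Hsph1 CPM 53.9 to 121 times those of the remaining nuclei, Dnajb1 21.2 to 139 times and Hsp90aa1 23.8 to 58 times. The ratio was 6.34 to 19.5 for Hspb1 and 6.32 to 19.8 for Hspe1. It was 6.25 to 6.57 for the constitutive Hspa8, 5.7 to 9.04 for Hsp90ab1 and 1.06 to 9.28 for Cryab, ranges that overlap those of Hspb1 and Hspe1. Of the high nuclei, 7 of 244, 13 of 93 and 16 of 63 were cardiomyocyte-like in the 3 hearts. Median depth was 2076.5 UMIs in the high nuclei and 2481 in the others.

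Inside cardiomyocyte-like nuclei the comparison was at like depth (8311 against 8453.5 UMIs), with the 3 hearts pooled. There Hsph1 was 177 times, Dnajb1 79.1 times, Hsp90aa1 14.8 times, Hspb1 9.69 times, Cryab 7.59 times and Hspa8 4.33 times as high in the 36 high nuclei. In neutrophil-like nuclei Hsph1 was 38.6 times and Hsp90aa1 24.4 times as high, but Cryab was not (0.844 times). The 48 high neutrophil-like nuclei were deeper (2956 against 1114 UMIs). Inside cluster 16 the 251 high nuclei were at 8.88 times for Hsph1, 4.87 for Dnajb1, 3.43 for Hsp90aa1 and 1.2 for Cryab. Their median depth was 1760 UMIs, against 1484.5.

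**Figure D3:**
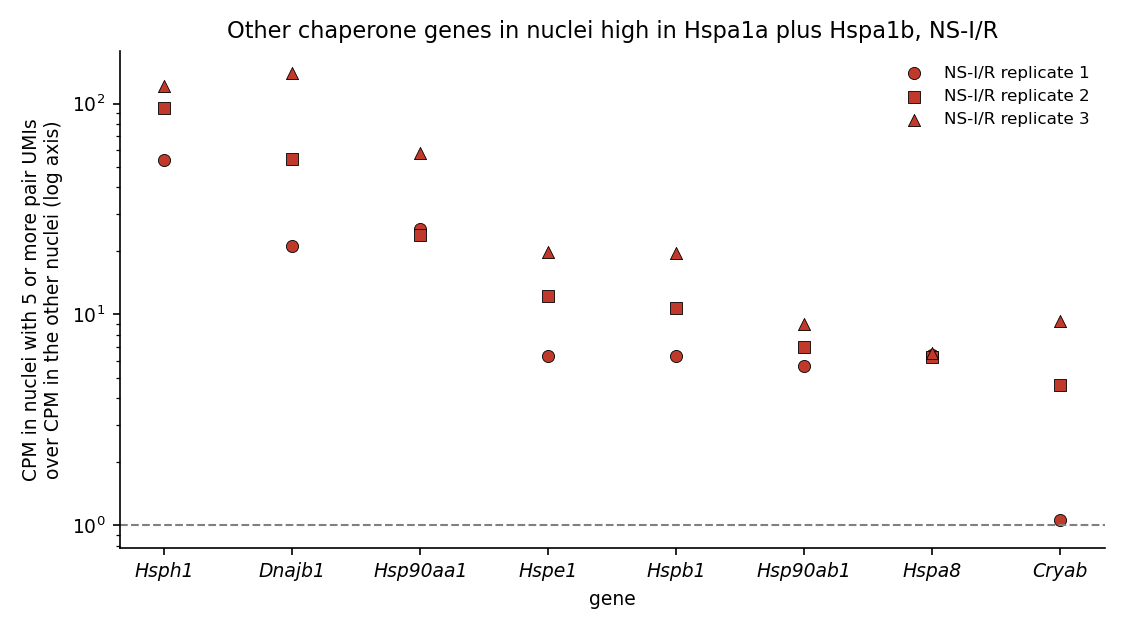
CPM of each other chaperone gene (x axis) in nuclei with at least 5 UMIs of Hspa1a plus Hspa1b over its CPM in the remaining nuclei (y axis, logarithmic), with a marker for each NS-I/R heart and a dashed line at 1. Hsph1 and Hsp90aa1 lie above 20 in all 3 hearts, while Cryab comes down to 1.06. Of the 400 high nuclei, 251 were in cluster 16.

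Among the co-chaperones, Hsph1 was 37.5, 11.8 and 15.2 CPM over all nuclei in NS-Sham, 77.7, 53.9 and 52.9 CPM in NS-I/R and 19.8, 27.9 and 15.8 CPM in Enpa-I/R. NS-I/R lay above both other groups, which overlapped. The differences were 1.52 (SE 0.39) for injury and -1.54 (SE 0.39, edgeR adjusted p = 0.0284) for the drug. Without cluster 16 they were 0.85 and -0.89 (edgeR adjusted p = 0.118), so neither passed the test without that cluster. Leaving out replicate 1 or 2 of NS-I/R, or replicate 1 or 3 of Enpa-I/R, also ended the drug call (edgeR adjusted p from 0.0624 to 0.101).

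In cardiomyocyte-like nuclei Hsph1 was 18.8, 5.18 and 8.47 CPM in NS-Sham, 11.4, 36.3 and 45.0 CPM in NS-I/R and 5.86, 7.22 and 5.74 CPM in Enpa-I/R. NS-I/R replicate 1 fell within the sham range there. The injury difference of 1.54 (SE 0.51) no longer passed with the replicate number as a block (1.54, SE 0.60), nor without NS-Sham replicate 2 or 3 or NS-I/R replicate 2 or 3 (1.18 to 1.40). The drug difference was -2.31 (SE 0.53, edgeR adjusted p = 0.0214). The drug call was lost without NS-I/R replicate 2 or any Enpa-I/R library (edgeR adjusted p from 0.0619 to 0.0755). In neutrophil-like nuclei Hsph1 was 130, 147 and 85.1 CPM in NS-I/R and 6.56, 23.4 and 0 CPM in Enpa-I/R. It fell by 3.05 (SE 0.53, edgeR adjusted p = 0.0188), and that call ended without NS-I/R replicate 2 (adjusted p = 0.0506) or any Enpa-I/R library (0.0597 to 0.114, edgeR). The difference was -1.28 (adjusted p = 0.227) at a mitochondrial limit of 20% and -1.63 (0.0572) with doublets kept.

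Dnajb1 was 7.45, 4.30 and 3.21 CPM over all nuclei in NS-Sham, 15.5, 15.1 and 14.0 CPM in NS-I/R and 6.13, 7.80 and 4.28 CPM in Enpa-I/R. Only the NS-I/R group stood clear. The differences were 1.58 (SE 0.29) for injury and -1.29 (SE 0.29, edgeR adjusted p = 0.0204) for the drug. That call was lost without replicate 1 or 2 of NS-I/R and without replicate 1 or 3 of Enpa-I/R (edgeR adjusted p from 0.0568 to 0.0794). In cardiomyocyte-like nuclei the difference of -1.29 did not pass (edgeR adjusted p = 0.0649).

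Hsp90aa1, the inducible HSP90, was 55.3, 36.5 and 38.9 CPM over all nuclei in NS-Sham, 231, 131 and 125 CPM in NS-I/R and 64.3, 71.0 and 59.1 CPM in Enpa-I/R. The 3 groups did not overlap. The differences were 1.90 (SE 0.24) and -1.32 (SE 0.24, edgeR adjusted p = 0.0121), and the drug call was lost without Enpa-I/R replicate 1 or 3 (adjusted p = 0.0582 and 0.0581, edgeR). In cardiomyocyte-like nuclei Hsp90aa1 was 43.9, 24.9 and 29.7 CPM in NS-Sham, 84.2, 86.2 and 73.6 CPM in NS-I/R and 40.6, 47.3 and 40.7 CPM in Enpa-I/R. There it fell by 0.93 (SE 0.19, edgeR adjusted p = 0.0165) with enpatoran, and the call ended without replicate 1 or 2 of NS-I/R and without replicate 1 or 3 of Enpa-I/R (0.061 to 0.0649).

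In neutrophil-like nuclei Hsp90aa1 was 475, 399 and 313 CPM in NS-I/R and 52.5, 113 and 74.2 CPM in Enpa-I/R. The groups lay far apart, and it fell by 2.23 (SE 0.32, edgeR adjusted p = 0.00802), lost without Enpa-I/R replicate 1 or 3 (0.0794 and 0.105). In macrophage-like nuclei the gene fell by 0.84 (SE 0.24, edgeR adjusted p = 0.047), and leaving out any library but NS-I/R replicate 3 ended that call, with -0.48 (adjusted p = 0.282) without NS-I/R replicate 1. The differences of -0.83 in endothelial-like and -0.65 in fibroblast-like nuclei did not pass (edgeR adjusted p = 0.0598 and 0.0644).

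Among the small heat-shock proteins, Hspb1 gave the tightest groups. Over all nuclei it was 24.8, 16.3 and 28.8 CPM in NS-Sham, 123, 133 and 116 CPM in NS-I/R and 58.9, 55.8 and 57.8 CPM in Enpa-I/R. The drug-treated hearts lay between the other 2 groups, with no overlap. The differences were 2.42 (SE 0.18) for injury and -1.11 (SE 0.17, edgeR adjusted p = 0.00912) for the drug. With a mitochondrial limit of 20% in place of 5%, the drug difference was -0.50 (edgeR adjusted p = 0.189).

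In cardiomyocyte-like nuclei Hspb1 was 24.1, 11.1 and 28.4 CPM in NS-Sham, 139, 165 and 146 CPM in NS-I/R and 55.7, 61.0 and 55.8 CPM in Enpa-I/R, again without overlap. It was 2.84 (SE 0.28) above NS-Sham in NS-I/R and fell by 1.38 (SE 0.26, edgeR adjusted p = 0.0139) with enpatoran. The drug call was lost without Enpa-I/R replicate 1 or 3 (adjusted p = 0.0553 and 0.0546), and with the mitochondrial limit of 20% (-0.64, adjusted p = 0.154). Within cluster 0, a cardiomyocyte-like cluster present in every library, the difference was 0.34 (edgeR adjusted p = 0.557).

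By class, Hspb1 in NS-Sham was highest in smooth muscle-like nuclei (122 ± 42.6 CPM), then endothelial-like (36.1 ± 3.32), cardiomyocyte-like (21.2 ± 8.97), pericyte-like (12.4 ± 4.33), fibroblast-like (11.6 ± 5.91) and macrophage-like nuclei (7.79 ± 4.72). Smooth muscle-like and endothelial-like nuclei each stood above the next beyond their spread, and the lower 4 did not. In NS-I/R it was higher in each of these classes, by 1.06 on the log2 scale in smooth muscle-like, 1.59 in endothelial-like, 2.18 in fibroblast-like, 2.43 in pericyte-like and 3.31 in macrophage-like nuclei. Of these, only endothelial-like nuclei had a drug difference past the threshold (-0.51, SE 0.12, edgeR adjusted p = 0.0323), which was lost without replicate 3 of NS-Sham, replicate 1 or 2 of NS-I/R or any Enpa-I/R library (0.0524 to 0.12). Whether classes differ in the drug's effect was not tested. The macrophage-like sham level of Hspb1 rests on 13 UMIs in 824 nuclei. Raw Hspb1 UMIs per nucleus in NS-I/R were 1.63 in cardiomyocyte-like and 1.06 in smooth muscle-like nuclei. They were 0.321 in neutrophil-like, 0.24 in endothelial-like, 0.197 in fibroblast-like, and 0.167 in both macrophage-like and pericyte-like nuclei. The part of free RNA in these levels was not tested.

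Cryab, a chaperone of the sarcomere and its filaments, was 145, 65.0 and 126 CPM in NS-Sham cardiomyocyte-like nuclei, 302, 316 and 324 CPM in NS-I/R and 220, 186 and 158 CPM in Enpa-I/R. The groups did not overlap. The injury difference was 1.49 (SE 0.25), and the drug difference of -0.74 (SE 0.25) did not pass (edgeR adjusted p = 0.0605, and 0.026 by DESeq2). Within cluster 0 it was 0.47, and with the mitochondrial limit of 20% -0.09. Over all nuclei Cryab was 1.12 (SE 0.23) higher in NS-I/R than in NS-Sham and differed by -0.34 between Enpa-I/R and NS-I/R (edgeR adjusted p = 0.311). Over all nuclei the injury difference was 0.42 with the mitochondrial limit of 20%.

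Cryab and the cardiac myosin gene Myh6, a marker of cardiomyocytes, were both counted in other classes and moved in opposite directions there. Myh6 had 1.33 UMIs per endothelial-like nucleus in NS-I/R and 3.04 in NS-Sham, and Cryab had 0.311 and 0.153. The Cryab level per nucleus was alike in NS-I/R endothelial-like (0.311), fibroblast-like (0.353), macrophage-like (0.291), pericyte-like (0.299) and neutrophil-like nuclei (0.365). Per 100 Myh6 UMIs, Cryab stood at 6.34 in cardiomyocyte-like and at 23.2 to 28.6 in those 5 classes of NS-I/R, against 1.05 and 4.38 to 6.45 (4 classes) in NS-Sham. In endothelial-like nuclei Cryab was 0.86 (SE 0.19) higher in NS-I/R than in NS-Sham and in macrophage-like nuclei 1.14. The part of free RNA in these differences was not tested.

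The constitutive members moved little. Hspa8 was 127, 72.8 and 103 CPM over all nuclei in NS-Sham, 165, 154 and 135 CPM in NS-I/R and 122, 122 and 112 CPM in Enpa-I/R. NS-Sham replicate 1 lay above all Enpa-I/R hearts. The injury difference was 0.59 (SE 0.17), and 0.08 with the mitochondrial limit of 20%. The drug difference of -0.35 did not pass (edgeR adjusted p = 0.174). In cardiomyocyte-like nuclei Hspa8 was 105, 51.1 and 82.0 CPM in NS-Sham, 137, 150 and 97.7 CPM in NS-I/R and 76.5, 79.2 and 66.4 CPM in Enpa-I/R, and it fell by 0.79 with enpatoran (SE 0.24, edgeR adjusted p = 0.0464). That call was the least stable of the class: it was lost without NS-Sham replicate 3 or any of the 6 I/R libraries except NS-I/R replicate 3 (0.0714 to 0.154), and at a mitochondrial limit of 20% the difference was -0.31.

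Hsp90ab1 was 158, 79.9 and 116 CPM over all nuclei in NS-Sham, 185, 161 and 159 CPM in NS-I/R and 142, 146 and 132 CPM in Enpa-I/R. Its differences were 0.52 (SE 0.20) and -0.27 (SE 0.20, edgeR adjusted p = 0.352). In fibroblast-like nuclei it was 0.79 (SE 0.17) higher in NS-I/R than in NS-Sham. Hspe1 was 26.1, 12.8 and 23.8 CPM in NS-Sham, 20.1, 20.0 and 27.5 CPM in NS-I/R and 20.7, 21.1 and 23.9 CPM in Enpa-I/R. All 3 groups overlapped, and its differences were 0.12 (SE 0.24) and -0.04 (SE 0.24, edgeR adjusted p = 0.915). Its upstream window held the most motif matches of the members listed (3, which overlap), and a link between matches and level was not tested.

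Counted together, 8 of the 10 genes were past an edgeR adjusted p of 0.05 and higher in NS-I/R than in NS-Sham over all nuclei, where 23.9% of all genes tested were higher and 23.9% lower. In cardiomyocyte-like nuclei 8 were higher (23.7% of all genes higher, 21.6% lower). The count was 5 in endothelial-like (17.7% of all genes), 6 in fibroblast-like (23.3%), 6 in macrophage-like (18%), 5 of 9 tested in pericyte-like (12%), 1 of 8 in smooth muscle-like (2.93%) and 2 of 6 in lymphatic endothelial-like nuclei (6.05%). None was lower in any of these by edgeR or DESeq2, and 1 had an unadjusted p under 0.05 for a lower level, in smooth muscle-like nuclei. The median log2 difference of the 10 genes was 1.55 over all nuclei and 1.48 in cardiomyocyte-like nuclei, beside 0 and 0.01 over all genes. Since results of this contrast were known when the genes were chosen, these counts are a description. With the replicate number as a block, Hsp90ab1 was also past the threshold over all nuclei (0.55, SE 0.18), Cryab in fibroblast-like (0.55, SE 0.17) and Hspa8 in macrophage-like nuclei (0.49, SE 0.18), and Hsph1 was no longer in cardiomyocyte-like nuclei, which gave counts of 9, 7, 7 and 7. Leaving out NS-Sham replicate 1 or 3 brought the smooth muscle-like count to 0, and leaving out NS-I/R replicate 3 brought it to 3. The cardiomyocyte-like count was 5 when replicate 2 or 3 of NS-Sham or replicate 2 of NS-I/R was left out, and the pericyte-like count was 3 when replicate 2 of NS-Sham was.

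With enpatoran 6 of the 10 genes were lower than in NS-I/R over all nuclei (8.74% of all genes lower, 7.75% higher): both HSP70 copies, Hsph1, Dnajb1, Hsp90aa1 and Hspb1. In cardiomyocyte-like nuclei 6 were lower (11.2% lower, 7.61% higher), with Hspa8 in place of Dnajb1. The count was 3 in endothelial-like (3.36%), 2 in fibroblast-like (5.89%), 3 in macrophage-like (3.37%), 2 of 9 tested in pericyte-like (2.88%) and 4 in neutrophil-like nuclei (0.798%). It was 0 in lymphatic endothelial-like nuclei (0.332%), with 1 at an unadjusted p under 0.05 and 0 by DESeq2, and the summed pair was not tested there. The count was 0 of 8 tested in smooth muscle-like nuclei, where edgeR called 0% of all genes, with 2 members at an unadjusted p under 0.05. DESeq2 called 0 there, of 7 members with an adjusted p. Among the members tested in each class, none was higher with enpatoran by edgeR or DESeq2, nor at an unadjusted p under 0.05. The median difference of the 10 genes was -1.20 over all nuclei and -1.11 in cardiomyocyte-like nuclei, beside 0 for all genes in both. Because the genes were chosen with results of these data known, these counts too are a description.

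These counts rested on few hearts. Leaving out Enpa-I/R replicate 1 or 3 brought the count over all nuclei from 6 to 3. The cardiomyocyte-like count was 3 without NS-I/R replicate 2, 2 without Enpa-I/R replicate 1 and 1 without Enpa-I/R replicate 3. The neutrophil-like count was 1 without Enpa-I/R replicate 1 or 3 and 7 without NS-I/R replicate 3. The fibroblast-like count was 0 when any of the 3 Enpa-I/R libraries was left out, 1 without NS-I/R replicate 1 or 2 and 4 without NS-I/R replicate 3. The pericyte-like count was 1 without NS-I/R replicate 1 or any Enpa-I/R library and 4 without NS-I/R replicate 3.

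**Figure D4:**
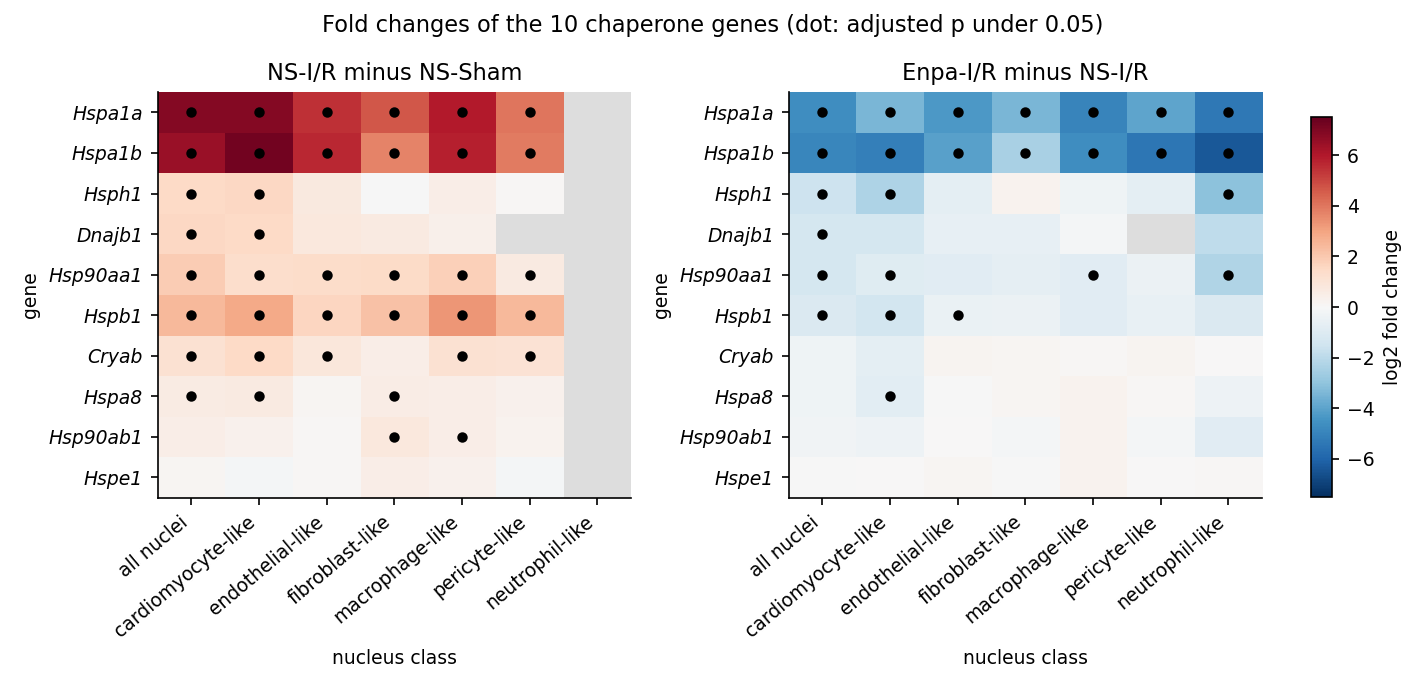
Log2 fold change (colour, red higher and blue lower) of the 10 genes (rows) by nucleus class (columns), for injury (NS-I/R minus NS-Sham) on the left and the drug (Enpa-I/R minus NS-I/R) on the right; a dot marks an edgeR adjusted p under 0.05, and grey was not tested. Both comparisons share the NS-I/R hearts, so their mirrored colours are not independent. The deepest colours are those of Hspa1a and Hspa1b, at 6.90 and 7.23 for injury in cardiomyocyte-like nuclei.

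Ratios of an inducible to a constitutive member within a library do not depend on how libraries are scaled, and they show unequal change, not which member changed. The log2 ratio of the summed pair to Hspa8 (0.5 UMIs added to each) over all nuclei was -5.27 ± 0.27 in sham hearts, 0.60 ± 0.71 in NS-I/R hearts and -3.90 ± 1.05 in Enpa-I/R hearts. In cardiomyocyte-like nuclei it was -7.00 ± 0.31, -0.97 ± 1.25 and -4.32 ± 1.19. In both, the NS-I/R hearts lay apart from the others.

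The log2 ratio of Hsp90aa1 to Hsp90ab1 was -1.41 ± 0.24, -0.11 ± 0.37 and -1.11 ± 0.06 over all nuclei, and -1.30 ± 0.28, -0.35 ± 0.08 and -0.88 ± 0.07 in cardiomyocyte-like nuclei. That of Dnajb1 to Hspa8 was -4.38 ± 0.53, -3.34 ± 0.08 and -4.32 ± 0.37 over all nuclei, with the Enpa-I/R hearts (-4.70 to -3.96) inside the sham range of -4.99 to -4.08 but for the highest. In cardiomyocyte-like nuclei it spread widely in NS-I/R (-4.46 to -2.66), and the groups overlapped.

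**Figure D5:**
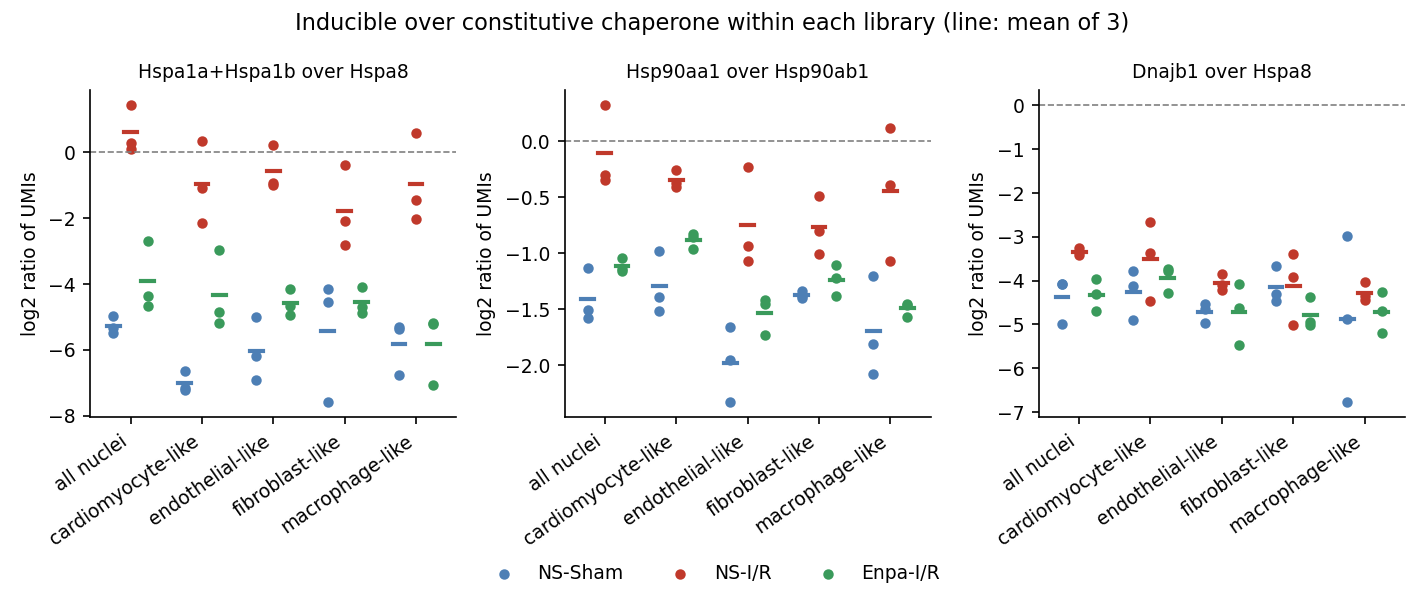
Log2 ratio of UMIs within each library (y axis) of an inducible over a constitutive chaperone, with a panel for each of 3 ratios, by nucleus class (x axis) and group (colour); points are libraries and lines the mean of 3. The pair over Hspa8 lies near -7.00 in sham cardiomyocyte-like nuclei and near -0.97 in NS-I/R.

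Genes with a pattern most like the summed pair were sought by Pearson correlation of log2(CPM + 1) over 63 sums of 7 classes and 9 libraries, among 9695 genes that averaged 10 CPM or more. Outside the 10 genes they were Wdr1 (r = 0.77), Wdfy1 (0.71), Ncl (0.68), Ccn1 (0.68) and Hbegf (0.68). Hbegf, a growth factor of the EGF family, averaged 7.49 ± 1.70 CPM in sham hearts over all nuclei, 89.1 ± 36 in NS-I/R hearts and 24.3 ± 0.835 in Enpa-I/R hearts, here without TMM scaling. Among the 10 genes the correlation was 0.77 for Hsp90aa1, 0.70 for Hspb1, 0.62 for Dnajb1, 0.51 for Hsph1, 0.43 for Hspa8, 0.37 for Hsp90ab1, 0.29 for Cryab and 0.18 for Hspe1. The 63 points share hearts, depth and free RNA, so these values are a description.

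The wider chaperone network was read from lists of 65 genes, taken by family with earlier results of these data known, so their injury differences too are a description. Over all nuclei 27 of 65 (41.5%) were past an edgeR adjusted p of 0.05 and higher in NS-I/R than in NS-Sham, and 4 (6.15%) were lower, where 23.9% of all genes were higher and 23.9% lower. The median log2 difference was 0.33, beside 0 for all genes. In cardiomyocyte-like nuclei 30 of 64 (46.9%) were higher and 3 (4.69%) lower, where 23.7% of all genes were higher and 21.6% lower (median 0.43, beside 0.01). The 8 subunits of TRiC, the chaperonin that folds actin and tubulin, were all among the higher genes in both. Cct2 was 1.28 (SE 0.16) and Cct8 1.08 (SE 0.13) higher on the log2 scale over all nuclei.

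Of 10 chaperones of the endoplasmic reticulum, 8 were among the higher genes over all nuclei and 9 in cardiomyocyte-like nuclei, beside the 23.9% and 23.7% of all genes. Manf, a secreted stress protein of this compartment, averaged 18.7 CPM in NS-Sham and 58.8 CPM in NS-I/R, a log2 difference of 1.66 (SE 0.16). Hspa5, the HSP70 of this compartment, was 1.43 (SE 0.14) higher over all nuclei, and the disulfide isomerase Pdia4 2.39 (SE 0.53) higher in cardiomyocyte-like nuclei. Hsf1, the gene of the heat-shock factor, was 0.46 (SE 0.12) higher over all nuclei and 0.48 (SE 0.14) higher in cardiomyocyte-like nuclei.

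Related genes also differed in direction. Among HSP90 co-chaperones, Fkbp5, a glucocorticoid-responsive immunophilin, had a log2 difference of 1.43 (SE 0.28) and its relative Fkbp4 one of -1.01 (SE 0.21) between NS-I/R and NS-Sham over all nuclei. For Hspa12a, a distant HSP70 relative, the difference was -1.04 over all nuclei and -2.83 in cardiomyocyte-like nuclei. The mitochondrial protease Lonp1 was 1.17 (SE 0.22) higher and Hspd1, the chaperonin partner of Hspe1, 0.64 (SE 0.16) higher over all nuclei.

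With enpatoran 2 of the 65 genes of the wider lists (3.08%) rose and 5 (7.69%) fell over all nuclei, where 7.75% of all genes rose and 8.74% fell, so the share that fell was near that of all genes. Calr, a calcium-binding chaperone of the endoplasmic reticulum, rose by 0.93 (SE 0.28, edgeR adjusted p = 0.0494) and Unc45b, a myosin chaperone, by 0.50 (SE 0.14, adjusted p = 0.0372). Lonp1 fell by 0.89 (SE 0.22, edgeR adjusted p = 0.0266) and Dnaja4 by 0.70 (SE 0.15, adjusted p = 0.0191). Cct2 and Cct8 fell by 0.63 and 0.62 (edgeR adjusted p = 0.0273 and 0.0189). In cardiomyocyte-like nuclei 1 of 64 (1.56%) rose and 6 (9.38%) fell, where 7.61% of all genes rose and 11.2% fell. Those that fell included Manf by 1.36 (SE 0.27, edgeR adjusted p = 0.0153) and Dnajc3, a co-chaperone of Hspa5, by 1.14 (SE 0.22, adjusted p = 0.0144). The counts of lower genes ran from 0 to 18 over all nuclei and from 0 to 17 in cardiomyocyte-like nuclei when single libraries were left out, and both maxima came without NS-I/R replicate 3.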

How the data were processed

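Nuclei of 9 frozen, powdered hearts were collected on an iodixanol barrier, and 3′ libraries were made, per the labels' protocols, with 1 library per heart. The deposited files hold raw counts of UMIs per gene and barcode, per the file headers, which name Cell Ranger 8.0.0. The submitters' processing notes name Cell Ranger 6.1.1, Seurat and the builds GRCh38 and GRCm39 with no role. The treatment of introns and of reads that match several genes is not given in the sources used here. No column of per-sample values was left unassigned (0).

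From the counts, barcodes with at least 500 genes and at most 5% mitochondrial UMIs were kept, and the highest Scrublet scores were removed, at 0.8% per 1000 barcodes. Removed doublets numbered 133 to 538 per library, and 11.8 to 23.7% of barcodes exceeded the mitochondrial limit. Nuclei were clustered together (scanpy 1.11.5, 2000 variable genes, 30 components, 15 neighbours, Leiden resolution 1) with the chaperone genes and the wider lists kept out. A cluster was named where at least 3 markers of a type were detected in at least 5% of its nuclei at 2 times the median level or more. The type's mean log2 marker level also had to lead the next type by at least 0.5. Clusters far below their libraries' median depth also needed a marker of the type among their top genes. The data had been seen when these naming thresholds were chosen. Markers were higher in their own class for every gene tested except 1 of 7 adipocyte markers. The same markers had named the clusters, so this outcome followed from the naming and does not test it.

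UMIs were summed per library and class (at least 25 nuclei) and tested by the quasi-likelihood method of edgeR 4.0.16 (TMM, filterByExpr, Benjamini-Hochberg adjustment over all genes, threshold 0.05, R 4.3.3, limma 3.58.1). A single fit of all 9 libraries per class was used so that groups share an estimate of spread. The neutrophil-like fit used 6 libraries. CPM are TMM-scaled except where stated. Exact binomial intervals are at 95% and cover counting error only. Shares of nuclei with a UMI were computed after thinning to 1000 UMIs. Python 3.11.15, scipy 1.17.1, numpy 2.4.6 and pandas 2.3.3 were used, and the tests were tested on simulated data.

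The 10 genes and the wider lists were chosen with earlier results of these data known. Genes outside the 10 were named for the highest correlation with the summed pair, and from each wider list by the 2 largest changes past the threshold at a mean of at least 10 CPM. Same-numbered NS-I/R and NS-Sham libraries deviated weakly together (r = 0.12, 0.12 and 0.13 over 5000 genes), and unlike-numbered ones gave -0.22 to 0.08. The replicate block is therefore given where it changes a call. Unlike-numbered Enpa-I/R and NS-I/R libraries reached 0.23, so this pairing is only a weak hint from the data, not from the labels. Alternatives were DESeq2 1.42.0 as a test and for size factors, no low-count filter, only the libraries of a contrast, other limits on nuclei, doublets kept, other clusterings, single clusters and each library left out.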

Additional observations from a re-analysis of the deposited data

Results flagged for a closer look

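Barcodes that the filters removed also held Hspa1a and Hspa1b RNA, which no comparison above uses. Their summed level was 3.17 ± 0.987 CPM in NS-Sham, 319 ± 89.4 CPM in NS-I/R and 18.1 ± 5.66 CPM in Enpa-I/R, above the sham level in both I/R groups.

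NS-I/R replicate 2 held 565 UMIs of the airway gene Bpifa1, where every other library held 0. It also held 470 UMIs of Cyp2f2 and 374 of Scgb1a1, other airway genes, against at most 2 and 19 elsewhere. These genes were chosen after the data were seen.

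For some constitutive members the libraries of 2 groups did not overlap in several classes, with opposite directions between classes. How many of all genes do the same was not counted, and the difference between classes was not tested. Of the values below only Hspa8 in cardiomyocyte-like nuclei with enpatoran and in fibroblast-like nuclei after injury passed the edgeR threshold, so no pair of opposite values both passed. For Hsp90ab1 the log2 difference between Enpa-I/R and NS-I/R was 0.27 in macrophage-like, -0.39 in cardiomyocyte-like and -0.83 in neutrophil-like nuclei. It was -0.16 in fibroblast-like nuclei, where the ranges nearly touched (190 to 194 CPM in Enpa-I/R, 195 to 233 CPM in NS-I/R). For Hspa8 it was 0.28 in macrophage-like, 0.35 in smooth muscle-like and -0.79 in cardiomyocyte-like nuclei. Between NS-I/R and NS-Sham, Hspa8 differed by 0.56 in fibroblast-like, 0.49 in macrophage-like and -0.47 in smooth muscle-like nuclei.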

How the results depend on the processing

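The fall of the summed Hspa1a and Hspa1b with enpatoran stayed past the edgeR threshold with any single library left out over all nuclei (-5.61 to -4.12), and in endothelial-like (-4.45 to -3.61), macrophage-like (-5.24 to -3.61), pericyte-like (-5.34 to -3.51) and neutrophil-like nuclei (-6.04 to -5.21). It ranged from -5.09 to -3.51 in cardiomyocyte-like, from -3.29 to -1.99 in fibroblast-like and from -4.94 to -0.80 in smooth muscle-like nuclei, where the injury difference ran from -0.66 to 3.47. With a library left out, the number of genes lower with enpatoran ran from 3 to 6 over all nuclei, 1 to 7 in cardiomyocyte-like, 0 to 4 in fibroblast-like, 1 to 4 in pericyte-like, 0 to 2 in smooth muscle-like and 1 to 7 in neutrophil-like nuclei. The number higher after injury ran from 5 to 8 in cardiomyocyte-like, 3 to 6 in pericyte-like and 0 to 3 in smooth muscle-like nuclei. For the wider lists the number lower with enpatoran ran from 0 to 18 over all nuclei and 0 to 17 in cardiomyocyte-like nuclei. Signs turned within cluster 0 for Hspa8 after injury (-0.24) and for Hspb1 (0.34), Hspa8 (0.12) and Cryab (0.47) with enpatoran, and within cluster 10 for Hspa8 after injury (-0.16); the cause was not tested. With only the libraries of the contrast, the fibroblast-like fall was -2.94 (not called), 0 genes were lower there, 0 were higher in smooth muscle-like nuclei, and 2 genes of the wider lists were lower both over all nuclei and in cardiomyocyte-like nuclei. Within cluster 12 the fibroblast-like fall was -2.27. Without a low-count filter 5 genes were lower in endothelial-like nuclei, and in smooth muscle-like nuclei the pair differed by 2.88 and -4.34, with 3 genes higher and 2 lower. With at least 1000 genes per nucleus 5 genes were lower in endothelial-like, 4 in pericyte-like and 0 higher in smooth muscle-like nuclei, and no neutrophil-like class was found. With doublets kept the smooth muscle-like injury difference was 2.98, with 2 genes higher. At a mitochondrial limit of 20% 3 genes were higher in pericyte-like nuclei, 2 of the wider lists were lower with enpatoran, and the sham log2 ratio of the pair to Hspa8 was -5.90. Thinned, that ratio was -6.20 in sham cardiomyocyte-like nuclei. DESeq2 called 1 gene lower in pericyte-like nuclei and 10 of the wider lists over all nuclei, and its size factors gave 8.

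With the replicate number as a block, 9 genes were higher after injury over all nuclei, 7 in cardiomyocyte-like, 5 in endothelial-like, 7 in fibroblast-like and 7 in macrophage-like nuclei. For Enpa-I/R and NS-I/R the numbers share only a label (r = -0.08, -0.28 and -0.15). The block gave a pair difference of -4.78 (edgeR adjusted p = 0.00779) over all nuclei and -4.01 (adjusted p = 0.0146) in cardiomyocyte-like nuclei. Under it Hspa8 was not called in cardiomyocyte-like nuclei (-0.79, adjusted p = 0.0606) and Hsp90aa1 was called in endothelial-like nuclei (-0.78, adjusted p = 0.0387). Sham macrophage-like values of the pair rest on 4 UMIs, so their precision is limited by counting.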
